A study of Mus musculus with 2 samples.

Results

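The glypicans and syndecans are the 2 main families of cell-surface heparan sulfate proteoglycans, and all 10 of their genes (*Gpc1* to *Gpc6* and *Sdc1* to *Sdc4*) were found by symbol among the 24421 rows of the deposited count table. The table compares 2 cultures of newborn mouse cells, each sequenced once. The chondrocytes were primary cells freed from rib cartilage with collagenase and kept for no more than 2 passages, and the dermal fibroblasts were primary cells of the dorsal skin. No treatment or genetic change is given for either culture, and the study did not treat sex as a variable. The strain of these animals and the number pooled are not given in the sources used here. The study made this comparison to narrow down, by expression, the transcription factors that might act on 2 *Sox9* enhancers.

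Glypicans are core proteins anchored in the outer leaflet of the plasma membrane by a glycosylphosphatidylinositol (GPI) lipid, whereas syndecans cross the membrane and carry a short cytoplasmic tail. Both carry heparan sulfate chains, which bind FGF, BMP, Hedgehog and WNT ligands at the cell surface and hold them near their receptors or away from them. In growing cartilage these ligands set the pace of chondrocyte proliferation and hypertrophy, and loss of *GPC3* in humans causes the overgrowth disorder Simpson-Golabi-Behmel syndrome.

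The reads counted on genes numbered 18788599 for chondrocytes and 17563724 for dermal fibroblasts. Of the 8 chondrocyte markers listed, all 8 were over 2-fold higher in chondrocytes, and *Col2a1* and *Matn1* had 0 counts in dermal fibroblasts. Of the 8 dermal fibroblast markers, 7 were over 2-fold higher in dermal fibroblasts, the exception being *Lum* with 3191 chondrocyte counts against 2881. Reads of genes listed as markers of other cell types were present in both libraries. The summed scaled level of 8 skeletal muscle markers was 1741 CPM (scaled counts per 1e6 reads) in chondrocytes against 1262 CPM in dermal fibroblasts, that of 8 keratinocyte markers was 135 and 305, that of 6 osteoblast markers was 131 and 52.5, that of 6 Schwann cell markers was 164 and 124, that of 6 macrophage markers was 107 and 169, and that of 6 endothelial markers was 14.7 and 47.5. Without *Itga6* and *S100b*, left out after the values were seen because each carried most of its list's chondrocyte sum, the keratinocyte sum was 9.04 and 254 CPM and the Schwann cell sum was 16.2 and 119. Of the markers in these 6 lists, only *Bglap* was at 0, in dermal fibroblasts. Whether these reads came from other cells or from the chondrocytes and dermal fibroblasts themselves was not tested. As the RNA came from whole cultures, fewer cells of a type and less RNA per cell cannot be told apart.

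The promoters of 7 of the 10 genes were found in the RefSeq table (GRCm38.p6), and 4 are shown because their genes differed most between the cell types or differed in the opposite direction from a close neighbour. Each run is the 250 bases before the annotated start, on the strand of the gene. The windows are chr2:164443189-164443438 for *Sdc4* (minus strand), chr4:130792287-130792536 for *Sdc3* (plus strand), chrX:52613975-52614224 for *Gpc3* (minus strand) and chrX:52164924-52165173 for *Gpc4* (minus strand). Capitals mark the GC box GGGCGG and the TATA core TATAA, each searched on both strands.
Sdc4: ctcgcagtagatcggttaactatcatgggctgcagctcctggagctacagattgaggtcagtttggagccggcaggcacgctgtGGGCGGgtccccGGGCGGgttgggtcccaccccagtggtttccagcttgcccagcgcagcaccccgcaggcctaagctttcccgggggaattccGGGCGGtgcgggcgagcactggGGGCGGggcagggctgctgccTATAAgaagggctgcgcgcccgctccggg
Sdc3: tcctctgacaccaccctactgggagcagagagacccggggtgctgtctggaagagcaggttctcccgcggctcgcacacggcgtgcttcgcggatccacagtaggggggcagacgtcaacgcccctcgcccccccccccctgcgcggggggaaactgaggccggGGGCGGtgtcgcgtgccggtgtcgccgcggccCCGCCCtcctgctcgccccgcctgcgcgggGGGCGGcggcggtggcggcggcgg
Gpc3: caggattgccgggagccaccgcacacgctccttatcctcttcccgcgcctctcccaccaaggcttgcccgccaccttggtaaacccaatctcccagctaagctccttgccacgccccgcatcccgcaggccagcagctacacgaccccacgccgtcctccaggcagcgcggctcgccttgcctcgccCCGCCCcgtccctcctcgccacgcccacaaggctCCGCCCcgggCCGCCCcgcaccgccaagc
Gpc4: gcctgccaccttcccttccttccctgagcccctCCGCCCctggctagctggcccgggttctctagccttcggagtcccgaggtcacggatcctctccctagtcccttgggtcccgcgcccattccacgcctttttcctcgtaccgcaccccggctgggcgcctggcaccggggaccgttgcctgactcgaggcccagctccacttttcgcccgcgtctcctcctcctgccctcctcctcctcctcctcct

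*Sdc4* had 4 GC boxes and a TATAA on its own strand at -29 to -25 from the start. *Sdc3* and *Gpc3* had 3 GC boxes each and no TATAA, and *Gpc4* had 1 GC box, at -217 to -212. Among the windows not shown, *Sdc1* and *Gpc2* had 3 GC boxes each and *Gpc5* had 1, and TATAA also occurred in *Sdc1* and *Gpc5*. A GC box occurred in 32.7% of 32851 promoter windows of this length, and TATAA in 22.8%. The SOX core motifs ACAAAG and ACAATG, of which at least 1 occurred in 25.2% of all windows, had no match in the 4 windows shown, and in the other windows of the families there was 1 match, in *Gpc2*. The *Gpc2* window (chr5:138279938-138280187, minus strand) reaches into the annotated span of the gene, which ends at 138280026. The match lies inside that span. The *Gpc5* window also reaches into the span of its gene. The GC content of the 7 windows ranged from 51.2% in *Gpc5* to 76.4% in *Sdc3*, and the median of all windows was 52.4%. These matches describe letters only. No binding was measured in the data used here.

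For the comparison of the cell types, counts were divided by library sizes scaled with edgeR's trimmed mean of M values (TMM), and a fold is the scaled chondrocyte count over the scaled dermal fibroblast count. Counts under 3 were set to 3. The bounds given after a fold are those of a 95% interval by the Clopper-Pearson method and describe counting error alone. With 1 library per cell type, no difference has a replicate check and no p-value was computed.

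Of the 10 genes, 9 had reads, and each of these had over 100 counts in both libraries. An interval wholly above 1, which means more scaled reads in chondrocytes, was found for 7 of the 9. *Gpc4* had an interval wholly below 1, and *Gpc2* had one that included 1. At these depths counting error is small, so that even the 1.09-fold difference of *Sdc2* excluded 1. The share of all genes with an interval that excluded 1 was not computed. The 7 of 9 therefore has no background beside it and is not read as a trait of the families. *Sdc4*, *Gpc3* and *Sdc3* were over 2-fold higher in chondrocytes, and none of the 9 was over 2-fold higher in dermal fibroblasts. Among the 17718 genes with a count, 10.7% were over 2-fold higher in chondrocytes and 13.9% in dermal fibroblasts, and among the 11162 genes with at least 100 counts in 1 library these shares were 8.79% and 13.3%. The whole interval lay above 2-fold for the same 3 genes, compared with 5.88% of the genes with a count. That share includes genes with few counts and wide intervals, and it was not computed for the genes with at least 100 counts. The median log2 fold was 0.80 over the 9 genes and 0.01 over the genes with at least 100 counts in 1 library.

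**Figure D1:**
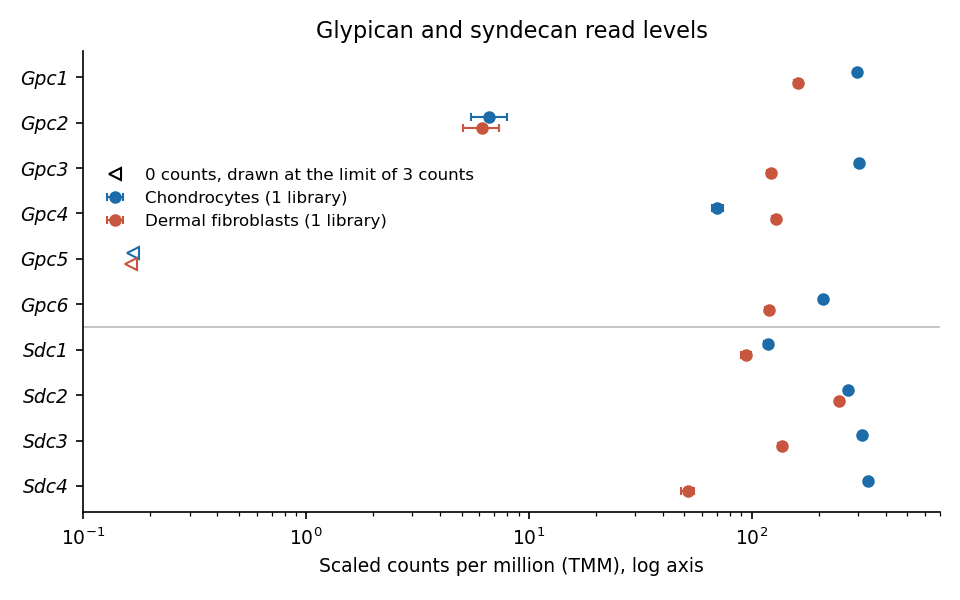
CPM of each glypican and syndecan gene in the chondrocyte library (blue) and the dermal fibroblast library (red), on a log axis, with 95% Poisson intervals for counting error. *Sdc4* shows the widest gap (335 against 51.7 CPM), *Gpc4* is the gene with the clearly higher dermal fibroblast value, and *Gpc5* has no reads and is drawn at the limit of 3 counts.

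*Sdc4* encodes syndecan-4, a component of focal adhesions that binds fibronectin through its chains and activates protein kinase C alpha through its tail. It had 6003 chondrocyte counts (335 CPM) and 951 dermal fibroblast counts (51.7 CPM), a 6.48-fold difference (6.05 to 6.95). Of 14291 genes with at least 10 counts in 1 library, 416 had a higher fold. The gene lies on chromosome 2 of GRCm38, from 164424247 to 164443188.

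*Sdc3*, the syndecan with the longest extracellular domain and best known from the nervous system and developing limb cartilage, had 5627 and 2523 counts, or 314 and 137 CPM. It was 2.29-fold higher in chondrocytes (2.19 to 2.40), and 1354 of the 14291 genes had a higher fold. It lies on chromosome 4, from 130792537 to 130826318. *Sdc3* and *Sdc4* are also known surface markers of muscle satellite cells. *Pax7*, which defines those cells and was chosen here after its values were seen, had 120 chondrocyte counts and 4 dermal fibroblast counts, and 4 of the 8 muscle markers were over 2-fold higher in chondrocytes. The part of muscle cells in the *Sdc3* and *Sdc4* values was not tested.

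The other syndecans differed less. *Sdc2*, the syndecan typical of mesenchymal cells (chromosome 15, 32920723 to 33034721), had 4842 and 4567 counts, a fold of 1.09 (1.05 to 1.13). *Sdc1*, the main syndecan of epithelia and plasma cells (chromosome 12, 8771396 to 8793716), had 2119 and 1739 counts, a fold of 1.25 (1.17 to 1.33). Of the 8 keratinocyte markers, 4 were over 2-fold higher in dermal fibroblasts, among them *Krt5* (1693 against 1 count) and *Krt14* (1939 against 17), and 1, the integrin gene *Itga6*, was over 2-fold higher in chondrocytes (2251 against 938). The part of epidermal cells in the *Sdc1* value was not tested. The direction of *Sdc2* depended on the scaling, with a fold of 0.991 by total counts.

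Among the glypicans, *Gpc3* differed most. It encodes glypican-3, a negative regulator of Hedgehog signaling and of embryonic growth, and had 5417 chondrocyte counts and 2241 dermal fibroblast counts, or 302 and 122 CPM. The difference was 2.48-fold (2.36 to 2.61), and 1233 of the 14291 genes had a higher fold. *Gpc1*, a glypican of the skeleton, muscle and nervous system (chromosome 1, 92831645 to 92860211), had 5307 and 2976 counts and was 1.83-fold higher in chondrocytes (1.75 to 1.92). *Gpc6*, whose loss in humans causes omodysplasia with short limbs (chromosome 14, 116924920 to 117979529), had 3741 and 2201 counts and was 1.75-fold higher (1.66 to 1.84). The intervals of *Gpc1* and *Gpc6* lay wholly below 2-fold.

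*Gpc4* was the one member with more reads in dermal fibroblasts beyond counting error. Glypican-4 modulates WNT and BMP signals in the embryo. The gene had 1259 chondrocyte counts and 2374 dermal fibroblast counts, or 70.2 and 129 CPM, and was 1.84-fold higher in dermal fibroblasts (1.71 to 1.97). With total counts in place of TMM its fold of chondrocytes over dermal fibroblasts went from 0.545 to 0.496, so that it passed the 2-fold threshold.

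*Gpc2*, a glypican of developing neurons, had 119 and 113 counts, or 6.64 and 6.14 CPM, and a fold of 1.08 (0.829 to 1.41). A difference was not detectable at this depth. Its annotated span (chromosome 5, 138273657 to 138280026) lies wholly within that of *Stag3* (21 and 12 counts), and whether the counting used the strand is not given in the sources used here. *Gpc5* (chromosome 14, 115092201 to 116525192) had 0 counts in both libraries, which allows up to 0.167 CPM in chondrocytes and 0.163 CPM in dermal fibroblasts.

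**Figure D2:**
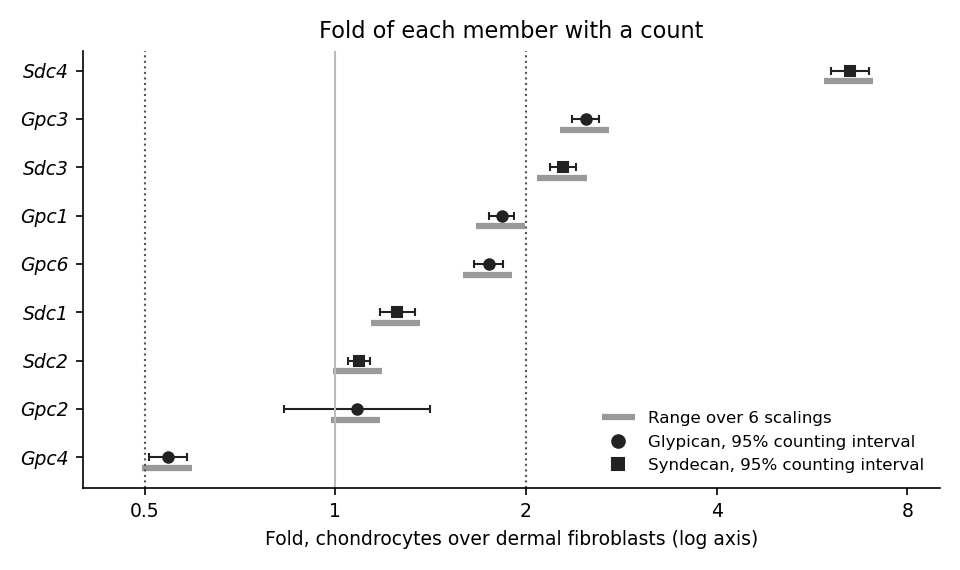
Fold of chondrocytes over dermal fibroblasts for the 9 genes with reads, on a log axis, with 95% counting intervals (points) and the range over 6 scalings (grey bars). *Sdc4*, *Gpc3* and *Sdc3* stay above the dotted line at 2 under each scaling, and the bar of *Gpc4* crosses the dotted line at 0.5.

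**Figure D3:**
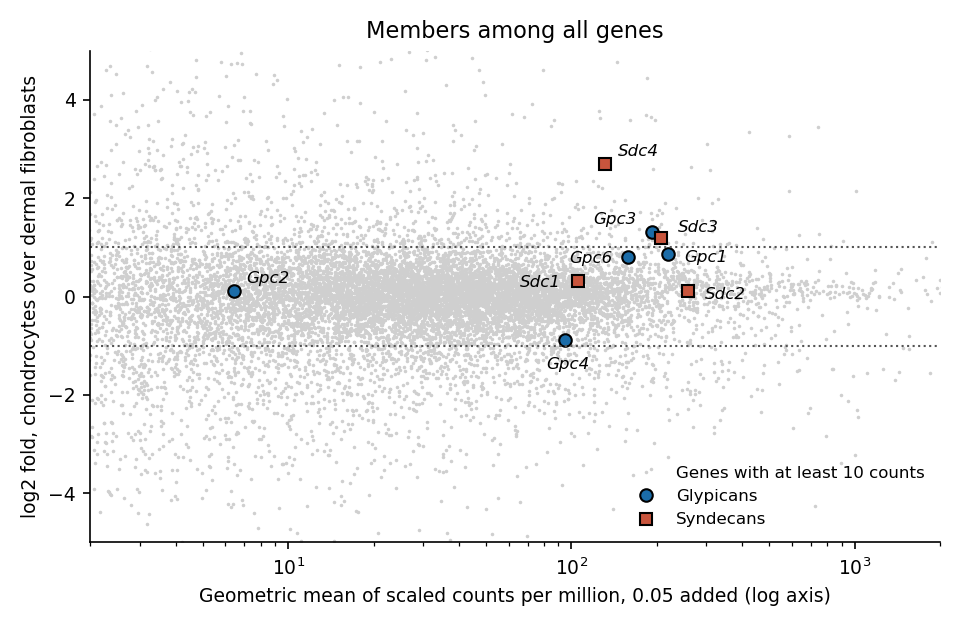
The log2 fold of each gene against the geometric mean of its CPM values, for genes with at least 10 counts in 1 library (grey) and for the glypicans (circles) and syndecans (squares); genes outside the axes are not drawn. *Sdc4*, *Gpc3* and *Sdc3* lie above the upper dotted line at a log2 fold of 1.

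Both X-linked glypicans are neighbours. *Gpc4* (52051007 to 52164923) and *Gpc3* (52272426 to 52613974) are separated by 107502 bp with no annotated gene between them, and they are transcribed in the same direction. The ratio of *Gpc3* to *Gpc4* reads was 4.30 in chondrocytes but 0.944 in dermal fibroblasts. The ratio therefore differed 4.56-fold between the libraries (4.19 to 4.96), a value that no scaling between libraries can change. The other tandem pair, *Gpc5* and *Gpc6* on chromosome 14, is separated by 399727 bp with no protein-coding gene between. There *Gpc5* had no reads in either library while *Gpc6* had 3741 and 2201 counts.

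Within each family the 16 pairs of genes with reads were compared in the same way, and for 15 of them the interval of the ratio between libraries excluded 1. The exception was *Gpc1* and *Gpc6*, whose read ratio was 1.42 for chondrocytes and 1.35 for dermal fibroblasts, a 1.05-fold difference with an interval from 0.979 to 1.12. At these depths small differences exclude 1, such as the 1.15-fold difference of *Sdc1* and *Sdc2* (1.07 to 1.24). The pairs share genes and are not independent, and the share among other gene pairs was not computed. The largest difference among syndecans was between *Sdc4* and *Sdc2*. There were 4.80 *Sdc2* reads for each *Sdc4* read in dermal fibroblasts and 0.807 in chondrocytes, a 5.95-fold difference (5.50 to 6.45).

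To compare levels between genes, scaled counts were divided by the merged exon length of each gene in GENCODE vM1, giving CPM per kilobase (RPKM). In chondrocytes *Sdc4* was highest at 131 RPKM, followed by *Gpc3* at 112. *Gpc1* at 82.4 and *Sdc2* at 81.3 did not differ beyond counting error. *Sdc3* (52.4), *Sdc1* (31.0), *Gpc4* (26.5) and *Gpc6* (22.1) followed, and *Gpc2* was at 0.799 RPKM. The merged exon length used for *Gpc2* was 8309 bp, more than its whole RefSeq span of 6370 bp. Its RPKM in both libraries may therefore be too low. In dermal fibroblasts *Sdc2* was highest at 74.7 RPKM. *Gpc4* (48.6) overlapped with *Gpc3* (45.3) within counting error, as did *Gpc3* with *Gpc1* (45.0). *Sdc1* (24.8) likewise overlapped with *Sdc3* (22.9), and *Sdc4* (20.3), *Gpc6* (12.7) and *Gpc2* (0.739) were lower. *Sdc4* was therefore the highest of the 10 genes per length in chondrocytes and ranked 7 in dermal fibroblasts. With the longest transcript as the length, *Gpc3* and *Sdc4* were both at 136 RPKM in chondrocytes and could not be ordered. With that length *Gpc6* (30.9) lay above *Gpc4* (26.5) in chondrocytes, and *Gpc3* (54.9) above *Gpc4* (48.6) in dermal fibroblasts. Both of these differences were beyond counting error.

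The make-up of the families differed accordingly. *Sdc4* gave 44.4% of the syndecan reads per kilobase in chondrocytes and 14.2% in dermal fibroblasts, while *Sdc2* gave 27.4% and 52.4%. *Gpc3* gave 46.0% of the glypican reads per kilobase in chondrocytes and 29.7% in dermal fibroblasts, and *Gpc4* gave 10.9% and 31.9%. *Gpc1* gave similar shares, 33.7% and 29.5%. Without a length correction, *Sdc4* took 32.3% of 18591 syndecan reads in chondrocytes (exact binomial interval 31.6 to 33.0) and 9.72% of 9780 in dermal fibroblasts (9.14 to 10.3), and *Gpc4* took 7.95% of 15843 glypican reads (7.53 to 8.38) and 24.0% of 9905 (23.1 to 24.8).

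**Figure D4:**
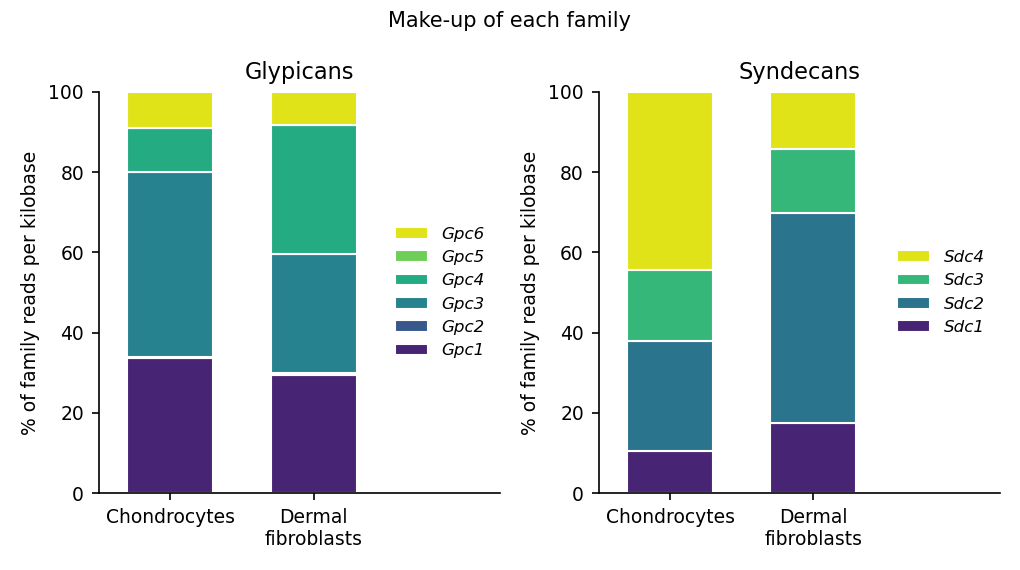
Share of each gene in the reads per kilobase of its family, in percent, for the 1 library of each cell type. The *Sdc4* and *Gpc3* segments are larger in chondrocytes and the *Sdc2* and *Gpc4* segments larger in dermal fibroblasts. With the lengths used, *Gpc2* is under 1% and *Gpc5* is at 0 in both.

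Summed over the family, glypican reads were 884 CPM in chondrocytes against 538 CPM in dermal fibroblasts, a 1.64-fold difference (1.60 to 1.68). Syndecan reads were 1037 and 531 CPM, a 1.95-fold difference (1.91 to 2.001). Without *Sdc4*, the syndecan sum was 1.46-fold higher in chondrocytes (1.42 to 1.50). Per kilobase, the syndecan sum was 1.21 times the glypican sum in chondrocytes and 0.937 times in dermal fibroblasts.

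The genes that build, edit and bind heparan sulfate were compared from 6 lists with 85 genes in all. Of the 80 with a count, 15 were over 2-fold higher in chondrocytes and 17 over 2-fold higher in dermal fibroblasts. Among all genes with a count, 10.7% were over 2-fold higher in chondrocytes and 13.9% in dermal fibroblasts. The counts of each list below are to be read beside these shares. Genes introduced below as the others past 2-fold were chosen after their values were seen. Of 12 genes of chain assembly, 3 were over 2-fold higher in chondrocytes and 0 in dermal fibroblasts, with a median log2 fold of 0.16. *Extl1*, a glycosyltransferase of the exostosin family, had 2552 chondrocyte counts against 56 dermal fibroblast counts and was 46.8-fold higher (35.9 to 62.1). *Xylt1*, the xylosyltransferase that starts the linker on the core protein, had 4335 and 352 counts and was 12.6-fold higher (11.3 to 14.1). *Fam20b*, the kinase that phosphorylates this xylose, had 4072 and 1188 counts and was 3.52-fold higher. These linker enzymes also serve chondroitin sulfate. The chain polymerase gene *Ext2* had a fold of 1.20.

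Sulfation and epimerization genes showed a median log2 fold of -0.67 over the 14 with a count, with 2 over 2-fold higher in chondrocytes and 5 in dermal fibroblasts. This median falls between *Ndst2* (log2 fold -0.63) and *Hs6st3* (-0.70). *Hs6st3* had 0 chondrocyte counts against 5, so that its value, and with it the median, depends on the floor of 3 counts. The 2 were the 3-O-sulfotransferases *Hs3st3b1* (358 and 55 counts, 6.69-fold) and *Hs3st3a1* (96 and 12 counts, 8.22-fold), the second chosen after its values were seen. The most abundant genes of the list lay within 2-fold, with *Ndst1* at 0.605, *Glce* at 0.941 and *Hs2st1* at 0.961. *Ndst3* was 4.62-fold higher in dermal fibroblasts with 128 counts against 27. The others higher there were *Hs6st1* (1532 against 734 counts), *Hs3st1* (51 against 7), *Hs3st5* (23 against 0) and *Hs3st6* (7 against 0). *Hs6st1* was 2.03-fold higher, with an interval from 1.86 to 2.22 that includes 2. The 0 counts of *Hs3st5* and *Hs3st6* were raised to the floor of 3, and *Hs3st6* was then 2.27-fold higher.

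Among 13 genes with a count that trim heparan sulfate or release the core proteins, 1 was over 2-fold higher in chondrocytes and 4 in dermal fibroblasts, and the median log2 fold was -0.39. *Mmp14*, a membrane metalloproteinase that can shed syndecan-1, had 28140 counts in dermal fibroblasts and 4317 in chondrocytes and was 6.35-fold higher in dermal fibroblasts (6.15 to 6.55). *Gdpd2*, of the family of GPI-cleaving phosphodiesterases, was 5.90-fold higher there with 103 counts against 17. *Mmp9* (468 against 101 counts) and *Gdpd5* (185 against 75) were the others. The sulfatase *Sulf2* had a fold of 0.718 and the convertase *Furin*, which processes glypican cores, 0.980. The 1 gene over 2-fold higher in chondrocytes was *Notum* (105 and 35 counts, 3.08-fold, 2.08 to 4.66), chosen after its values were seen, a secreted hydrolase known to act on WNT proteins.

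Of 11 cytoplasmic partners of syndecans, 3 were over 2-fold higher in chondrocytes and 1 in dermal fibroblasts, and the median log2 fold was -0.18. *Tiam1*, a Rac activator, had 1496 and 417 counts and was 3.68-fold higher in chondrocytes (3.30 to 4.12). *Cask*, a PDZ scaffold, had 994 and 2586 counts and was 2.53-fold higher in dermal fibroblasts. *Actn1* (0.663), *Cttn* (0.839) and *Pdcd6ip* (1.04) lay within 2-fold. The others higher in chondrocytes were *Ezr*, which encodes the membrane linker ezrin (1088 against 458 counts), and *Sdcbp2* (14 against 7 counts, with an interval from 0.776 to 6.01 that includes 1).

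Other proteoglycan cores gave 1 gene of 10 over 2-fold higher in chondrocytes and 4 in dermal fibroblasts, with a median log2 fold of -0.42. Perlecan (*Hspg2*), the heparan sulfate proteoglycan of cartilage matrix and basement membrane, had 49320 and 23490 counts, a fold of 2.16 (2.12 to 2.19). *Tgfbr3*, the TGF-beta co-receptor betaglycan, had 2579 and 10184 counts and was 3.84-fold higher in dermal fibroblasts (3.68 to 4.02), and *Spock1* was 18.9-fold higher there with 136 counts against 7. *Agrn* had a fold of 1.16. *Col18a1* (6534 against 1912 counts) and *Spock3* (7 against 1 count, 2.27-fold with the single count raised to the floor of 3, and with a counting interval from 0.876 to 307 that includes 1) were the others higher in dermal fibroblasts.

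Of 20 heparan sulfate binding ligands with a count, 5 were over 2-fold higher in chondrocytes and 3 in dermal fibroblasts, with a median log2 fold of 0.06. *Bmp2* had 115 and 15 counts and was 7.87-fold higher in chondrocytes (4.58 to 14.5), and *Bmp7* had 299 and 43 counts and was 7.14-fold higher (5.18 to 10.1). The chemokine gene *Cxcl12* had 9048 counts in dermal fibroblasts and 2393 in chondrocytes and was 3.68-fold higher in dermal fibroblasts. *Vegfa* (0.736) and *Ptn* (1.03) lay within 2-fold. The others higher in chondrocytes were *Hbegf* (538 against 161 counts), *Wnt5b* (82 against 37) and *Ihh*, the Hedgehog ligand of the growth plate (41 against 3 counts, interval 4.48 to 70.9), and those higher in dermal fibroblasts were *Fgf10* (558 against 140) and *Fgf18* (39 against 9).

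**Figure D5:**
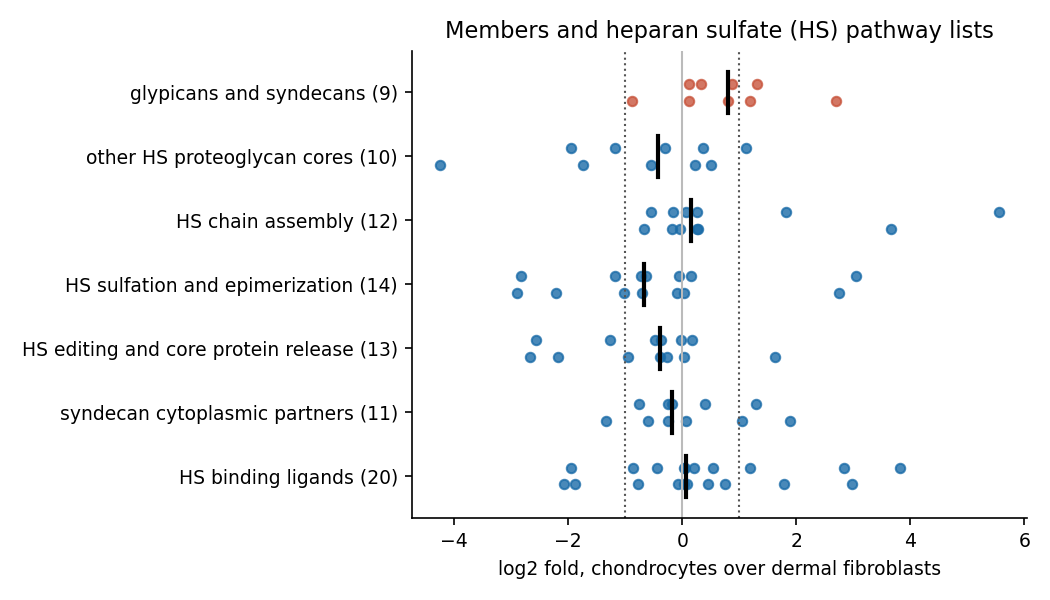
The log2 fold of each gene with a count, chondrocytes over dermal fibroblasts, for the 9 glypicans and syndecans (red) and the genes of 6 heparan sulfate (HS) lists (blue), with the number of genes in parentheses, the median as a black bar and 2-fold as dotted lines. The median of the members is 0.80, and the medians of the lists lie between -0.67 and 0.16. Unlike the members, the lists include genes with few counts, and the values of those under 3 counts in a library depend on the floor.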

How the data were processed

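RNA was measured in 1 library of primary chondrocytes and 1 of primary dermal fibroblasts. The authors sequenced stranded mRNA libraries as 75 bp single-end reads and, per the labels, used CASAVA 1.8.2, TopHat2 2.0.13, Bowtie2 2.2.3, SAMtools 0.1.19 and mm10. The deposited values are counts of reads for each gene symbol, in whole numbers and without normalization. The counting program and its strand setting are not given in the sources used here.

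Counts were scaled with TMM (edgeR 4.0.16, R 4.3.3). Folds, exact binomial and Poisson intervals (95%, counting error only, since reads are not independent molecules) were computed with Python 3.11.15, scipy 1.17.1 and numpy 2.4.6, with a floor of 3 counts and a threshold of 2-fold, and checked on simulated counts. With 1 library per group no test across genes was made. Scaling by total counts, DESeq2 1.42.0 size factors, upper quartile, totals that leave out the top 10 genes of each library, and *Actb*, other floors and other thresholds were tried. Lengths were those of GENCODE vM1 (NCBIM37), and gene positions and promoters those of RefSeq (GRCm38.p6, the mm10 assembly). No coordinates were converted.

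The members, lists and tests were chosen with earlier results of these data known. Named were all members, the 3 most abundant genes of each heparan sulfate list and the 2 with the largest folds among those with at least 100 counts in 1 library.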

Additional observations from a re-analysis of the deposited data

How the results depend on the processing

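No paired analysis was possible because the groups hold 1 library each, and no replicate was left out. Relative to TMM, total counts shifted all log2 folds by -0.14 and *Actb* by 0.12, and the other scalings shifted them by less than 0.05. Of the 9 genes with reads, 3 were over 2-fold higher in chondrocytes under each scaling and each floor and with the interval wholly beyond 2-fold, and 1 (*Sdc4*) was with a fold over 4. The number higher in dermal fibroblasts was 0, and 1 (*Gpc4*) with total counts. Of 72 member folds under the scalings, floors and pseudocount, 16 lay outside the interval of the main value, all with total counts or *Actb*, and 2 lay on the other side of 1. These were *Gpc2* (0.984) and *Sdc2* (0.991), both with total counts. The range of *Sdc4* was 5.90 to 7.06, of *Gpc3* 2.26 to 2.70 and of *Sdc3* 2.08 to 2.49.

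The summed fold of glypicans was 1.50 with total counts, 1.70 without the most abundant genes and 1.79 with *Actb*, and that of syndecans was 1.78, 2.02 and 2.13. With the longest transcript, the leading shares were 49.2% for *Gpc3* and 42.8% for *Sdc4* in chondrocytes, and 29.1% for *Gpc4* and 48.8% for *Sdc2* in dermal fibroblasts. With no length correction they were 34.2%, 32.3%, 24.0% and 46.7%. *Gpc4* led the glypicans of dermal fibroblasts only with merged exon lengths, as *Gpc3* had 32.9% with the longest transcript and *Gpc1* 30.0% with no length correction.

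Over all genes, 1887 were over 2-fold higher in chondrocytes and 2468 in dermal fibroblasts. A pseudocount of 1 gave 2876 and 2846, a fold over 4 gave 713 and 929, and an interval wholly beyond 2-fold gave 1041 and 1546. For the heparan sulfate lists, with 15 and 17 in the main setting, a fold over 4 gave 7 and 8. An interval wholly beyond 2-fold gave 13 and 13 there, a floor of 10 counts 14 and 15, and a floor of 1 count 16 and 18. The stricter thresholds remove genes by construction. Depth limits *Gpc2* and *Gpc5*, and with 1 library per cell type the intervals leave out the spread between cultures.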
